A study of Mus musculus with 12 samples.

Results

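Open chromatin was examined at the genes of cholesterol efflux and of its sterol sensor, the liver X receptor (LXR), in graft-derived and host macrophages of the mouse brain. The members were all ATAC-seq peaks that the deposited annotation assigned to 1 of 9 genes, namely Abca1, Abcg1, Pltp, Nr1h3, Nr1h2, Mylip, Lpcat3, Srebf1 and Srebf2. There were 63 such peaks among the 60288 peaks of untreated mice and 54 among the 54953 peaks of mice injected with lipopolysaccharide (LPS). Abca1 held 17 and 15 of them in the untreated and LPS tables, Abcg1 held 15 and 11, and Mylip held 14 and 10. The other 6 genes held 2 to 5 peaks each per table.

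All mice were wild-type C57BL/6J hosts whose marrow had been replaced, after 950 cGy of irradiation, with congenic wild-type marrow that carried the CD45.1 allele. The labels give 3.5 or 9 months from transfer to use and tie neither to a mouse, while the paper's account of these chimeras gives only the longer interval. Each brain gave a sort of CD45.1 cells, which descend from the graft, and a sort of CD45.2 cells, the host microglia that survived irradiation. Mice 4, 5 and 6 were untreated, and mice 1, 2 and 3 had received 2.5 mg/kg LPS 12 h earlier, which makes 4 groups of 3 libraries. ATAC-seq marks DNA that a transposase can reach, so a tag counts a cut at an accessible site and not a transcript.

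LXRs are nuclear receptors that sense oxidised sterols, pair with retinoid X receptors (RXRs) and bind direct repeats of a short hexamer in the genes they control. Macrophages that take up myelin or dead cells are loaded with cholesterol, and LXR target genes move it out of the cell onto lipoproteins, reshape phospholipids and limit further uptake. The SREBP factors, encoded by Srebf1 and Srebf2, work on the other side of this balance and drive the synthesis of fatty acids and sterols.

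The letters of an LXR-type direct repeat (NGGTNANNNNNGGTNA, a hexamer repeated after 4 bases, searched on both strands in the 200 bases centred on each peak) were found in 7 of the 63 untreated member peaks (11.1%) and in 7 of the 54 LPS member peaks (12.96%). Of all peaks, 0.481% of the untreated and 0.486% of the LPS table held them. The matches were the same 7 sites in both tables, 3 in Abca1, 3 in Abcg1 and 1 upstream of Mylip, and none of the 7 shared a base with another motif searched. They are printed because they mark where the best known targets of the receptor carry its letters (build mm9, given on the strand of the match, the repeat in capitals with 10 bases on either side).
Abca1 promoter, chr4:53172819-53172834, plus strand: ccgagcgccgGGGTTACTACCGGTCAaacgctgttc
Abca1 intron 1, chr4:53171744-53171759, plus strand: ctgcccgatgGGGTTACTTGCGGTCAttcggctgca
Abca1 intron 5, chr4:53128862-53128877, plus strand: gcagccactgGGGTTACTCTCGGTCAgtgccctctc
Abcg1 intron 1, chr17:31195826-31195841, minus strand: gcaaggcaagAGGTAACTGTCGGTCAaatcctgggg
Abcg1 intron 2, chr17:31210430-31210445, plus strand: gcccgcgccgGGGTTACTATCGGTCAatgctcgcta
Abcg1 intron 2, chr17:31212650-31212665, plus strand: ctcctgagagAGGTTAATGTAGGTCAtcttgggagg
Mylip upstream, chr13:45467166-45467181, minus strand: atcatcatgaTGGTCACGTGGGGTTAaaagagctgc

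The member peaks that differed most between the populations did not hold that repeat. Shown next are the LPS-table peak at -21.8 kb of Abca1, the central 200 bases of the LPS-table peak at -1.81 kb of Nr1h3, and the untreated peaks at -101 kb and -59.1 kb of Mylip (mm9, plus strand). Capitals mark AP-1 letters (TGANTCA) and CEBP letters (TTGCNNAA, here TTAGGCAA on the opposite strand in the Abca1 peak), and the Mylip peaks held none of the 8 motifs searched.
Abca1, chr4:53194463-53194616: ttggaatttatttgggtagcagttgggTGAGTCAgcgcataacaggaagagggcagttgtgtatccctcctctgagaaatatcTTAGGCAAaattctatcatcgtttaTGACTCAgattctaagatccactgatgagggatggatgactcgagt
Nr1h3, chr2:91036983-91037182: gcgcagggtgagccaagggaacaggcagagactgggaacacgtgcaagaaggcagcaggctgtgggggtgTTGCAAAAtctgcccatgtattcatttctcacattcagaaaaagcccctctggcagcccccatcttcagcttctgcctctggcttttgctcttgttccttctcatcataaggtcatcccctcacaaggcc
Mylip, chr13:45383949-45384046: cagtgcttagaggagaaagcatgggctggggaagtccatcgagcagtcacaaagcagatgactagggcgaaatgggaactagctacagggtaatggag
Mylip, chr13:45426002-45426101: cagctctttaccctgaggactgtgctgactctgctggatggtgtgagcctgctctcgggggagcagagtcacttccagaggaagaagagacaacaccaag

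Libraries held 8392877.5 to 9107770 tags in untreated mice and 2966364 to 6556594.5 after LPS, and counts were scaled within each table. In untreated mouse 4 the CD45.2 library had 18.4% of its tags in merged peaks, against 29.7% to 39.0% in the other untreated libraries. Promoter peaks of the markers of grafted macrophages (Ms4a7, Apoe and Mrc1, with none found for Ccr2 and Cd38) summed to 190 to 213 normalised tags in CD45.1 and 48.3 to 58.4 in CD45.2 untreated libraries, and after LPS, with Cd38, to 66.5 to 98.5 and 27.6 to 36.8. Those of the microglia list summed to 436 to 536 and 578 to 658 in untreated and 158 to 197 and 175 to 213 in LPS libraries, with no promoter peak at Sall1 or Slc2a5. No promoter peak of the T cell, B cell or endothelial lists was present in either table. Of the astrocyte list only Aldh1l1 had one, at 10.3 to 16.4 normalised tags in CD45.1 and 24.4 to 53.2 in CD45.2 untreated libraries. Of the oligodendrocyte list only Mbp had one, at 37.9 to 43.8 and 31.0 to 48.3. Of the neuron list, 0 of 4 genes had one in untreated mice and 1 of 4 after LPS, at 0 to 1.89 and 0 to 5.34. Of the neutrophil list, S100a8 and Camp had promoter peaks after LPS only, at 14.6 to 46.2 in CD45.1 and 13.1 to 60.0 in CD45.2 libraries. The part of such other cells in the results was not tested.

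The first question was where accessibility at these genes differs between grafted and host cells at rest. In untreated mice 6 of the 63 member peaks, all of which were tested, differed at an adjusted p under 0.05 (DESeq2), 3 at Abca1 that were higher in CD45.1 and 3 upstream of Mylip that were higher in CD45.2. Of all 59170 peaks tested, 8.54% were higher in CD45.1 and 6.32% in CD45.2 by that rule. By a stricter rule, the 4-fold limit of the study with an adjusted p below 0.01, 1 member peak was higher in CD45.1 (3.78% of all peaks) and 2 were higher in CD45.2 (2.65%). The median log2 difference was -0.03 over the member peaks and 0.00 over all peaks, and 87.3% of the member peaks against 80.3% of all peaks differed by less than 2-fold. With edgeR 10 member peaks passed, 5 in each direction, against 7225 of all 59170 peaks higher in CD45.1 and 6320 higher in CD45.2. The additional member peaks lay at Abca1 (+32.9 kb), Pltp (-9.69 kb), Nr1h3 (-1.92 kb) and Lpcat3 (+13.7 kb). A bulk count does not tell more cells with an open site from more open sites per cell.

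Abca1 encodes the transporter that loads cholesterol and phospholipid onto lipid-poor apolipoproteins. Its promoter peak (chr4:53172831-53172976, -136 bp from the start site) was called in every library of both populations. It held 173, 172.5 and 138.5 tags in the CD45.1 libraries of mice 4, 5 and 6 and 125.5, 187 and 211 in the CD45.2 libraries. After scaling, these were 157 ± 5.33 and 174 ± 30.5 normalised tags (SD, n = 3), and the log2 difference of -0.14 (SE 0.17) did not pass the test (adjusted p = 0.741).

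An intergenic peak at -22.0 kb of Abca1 (chr4:53194710-53194814) had tags in the CD45.1 libraries alone. It held 7.5, 6.5 and 15.5 tags in the CD45.1 libraries and 0 tags in each of the 3 CD45.2 libraries. The groups did not overlap, and with a floor of 3 tags per CD45.2 library the CD45.1 mean was at least 3.08-fold higher (adjusted p = 0.000656). The peak caller listed it in 1 of the 3 CD45.1 libraries and in none of the CD45.2 libraries. It passed the count filter only through the CD45.1 library of mouse 6, and without that library it could not be tested.

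A pair of peaks in intron 1 of Abca1 were also higher in the graft, by smaller amounts. The peak at +4.29 kb (chr4:53168354-53168594) held 165, 176 and 126.5 tags in CD45.1 and 72, 90.5 and 100.5 in CD45.2. The log2 difference was 0.79 (SE 0.20, adjusted p = 0.00119), which is 1.73-fold, and the groups did not overlap. Its call was lost without the CD45.2 library of mouse 5 (adjusted p = 0.0708), with total-tag scaling (0.074) and with the block and GC correction (0.0926). The peak at +9.19 kb (chr4:53163492-53163660) held 54, 58 and 46 tags in CD45.1 and 22.5, 29 and 33.5 in CD45.2. It was 1.84-fold higher in CD45.1 (log2 0.88, SE 0.31, adjusted p = 0.0317), and the call was lost when any library other than CD45.2 of mouse 4 was left out (adjusted p up to 0.314) as well as with the mouse as a block (0.157) and with total-tag scaling (0.162). The other 14 Abca1 peaks lay between -0.42 and 0.37 on the log2 scale.

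Mylip encodes IDOL, a ubiquitin ligase that marks the LDL receptor for degradation and so limits cholesterol uptake. Its promoter peak (chr13:45484952-45485154) was among the strongest member peaks in tags per library, with 232.5, 217.5 and 201 in CD45.1 and 147.5, 273 and 256 in CD45.2. The log2 difference there was -0.05 (SE 0.14, adjusted p = 0.909). Both populations carried this promoter open.

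The intergenic stretch upstream of Mylip held the member peaks that were higher in host microglia. The peak at -101 kb (chr13:45383949-45384046) had 3, 4 and 0 tags in CD45.1 and 12, 30 and 31.5 in CD45.2, and was 10.3-fold higher in CD45.2 (log2 -3.37, SE 0.71, adjusted p = 6.29e-05). The peak at -59.1 kb (chr13:45426002-45426101) had 1.5, 0 and 1 tags in CD45.1 and 10, 20.5 and 14 in CD45.2. The ratio of its scaled tags was 21.7, with a 95% exact counting interval from 5.65 to 184 (adjusted p = 0.00181). In both peaks every CD45.2 library lay above every CD45.1 library, and the peak caller listed both in 3 of 3 CD45.2 libraries and in none of CD45.1. Both peaks passed the count filter only through CD45.2 libraries, so the lack of overlap and the peak calls are not separate support.

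The third peak, at -31.3 kb (chr13:45453711-45453853), was listed in all libraries of both populations. It held 18, 31.5 and 18 tags in CD45.1 and 26, 74 and 58.5 in CD45.2, a 2.25-fold difference (log2 -1.17, SE 0.34, adjusted p = 0.00545). Its call was lost without the CD45.1 library of mouse 4 and without the CD45.2 library of mouse 5 (adjusted p up to 0.132), with total-tag scaling (0.11) and with the block and GC correction (0.0726). Of the other 11 Mylip peaks, between -1.67 and 0.35 on the log2 scale, none passed.

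**Figure D1:**
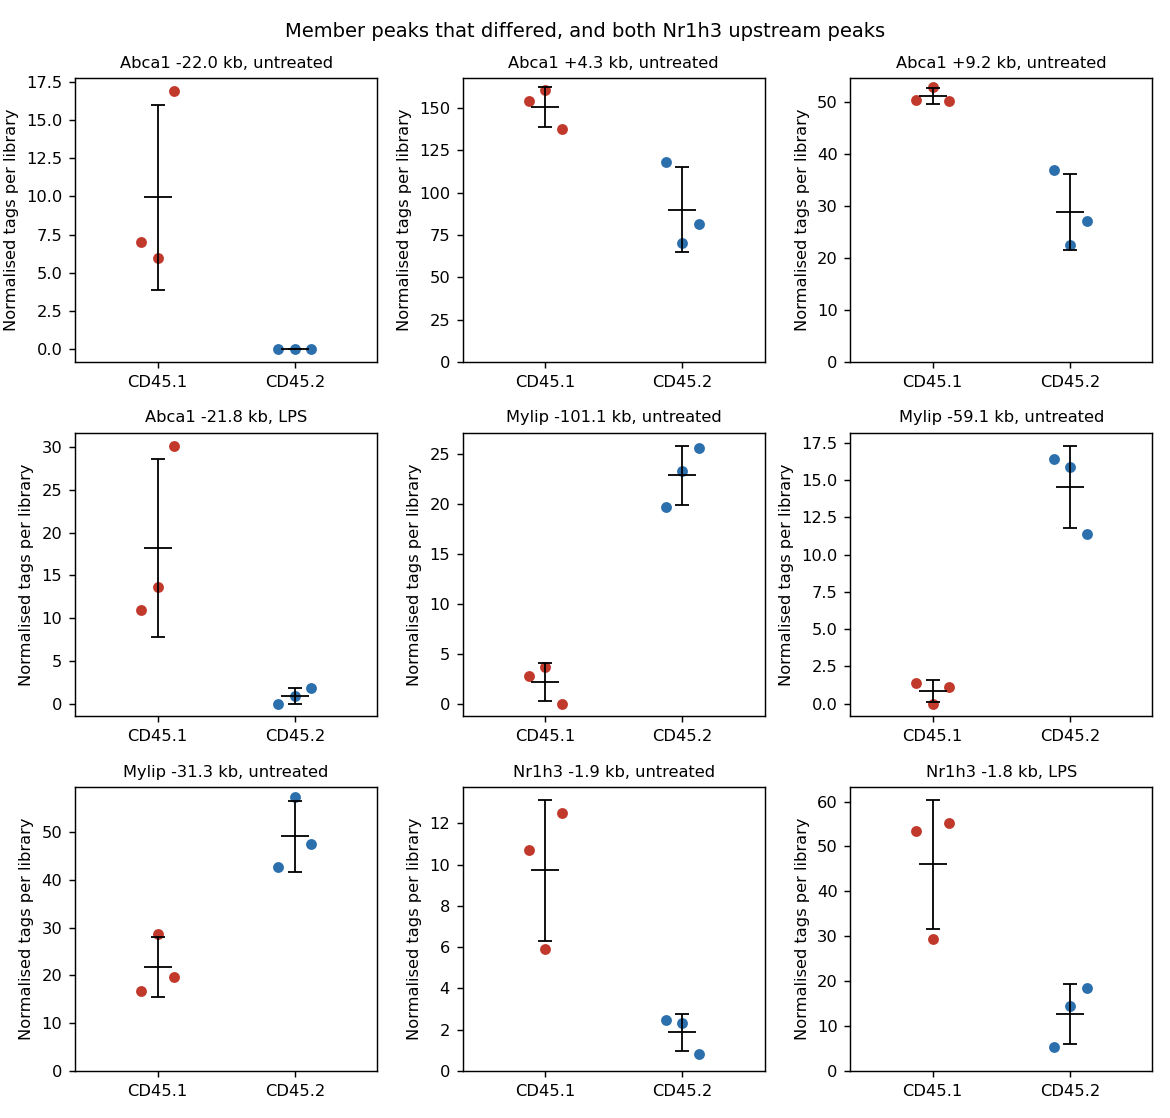
Normalised tags per library (y axis) in CD45.1 and CD45.2 cells (x axis) for the 8 member peaks with an adjusted p under 0.05 and for the untreated Nr1h3 peak at -1.92 kb. Points are libraries and bars are the mean and SD of 3. CD45.1 points lie above CD45.2 points in every Abca1 and Nr1h3 panel and below them in every Mylip panel.

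Abcg1 encodes the partner of ABCA1 that passes cholesterol to mature high-density lipoprotein. None of its 15 untreated peaks passed, and their log2 differences ran from -0.68 to 0.52. Its promoter peak (chr17:31194563-31194701, which overlaps the 5′ end of the transcript) held 39, 25 and 26.5 tags in CD45.1 and 13.5, 26.5 and 25.5 in CD45.2 (log2 0.46, SE 0.38, adjusted p = 0.547). Pltp encodes the phospholipid transfer protein that remodels lipoprotein particles. Its weak promoter peak held 6, 5.5 and 8 tags in CD45.1 and 1.5, 16 and 9.5 in CD45.2, so the populations overlapped widely. The peak at -9.69 kb of Pltp was at 17, 38 and 26.5 tags in CD45.1 and 5.5, 21.5 and 16.5 in CD45.2, and did not pass (log2 0.94, SE 0.45, adjusted p = 0.169).

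Nr1h3 encodes LXR alpha, and Nr1h2 encodes the broadly expressed LXR beta. The Nr1h3 peak at the start of the gene (+303 bp, annotated to the 5′ UTR) held 46.5, 34.5 and 27.5 tags in CD45.1 and 19.5, 46.5 and 45 in CD45.2 (log2 -0.01, adjusted p = 0.991). The Nr1h3 peak at -1.92 kb (chr2:91037138-91037242) was named after its values were seen, because it overlaps a peak of the LPS table. It held 11.5, 6.5 and 11.5 tags in CD45.1 and 1.5, 3 and 1 in CD45.2. The groups did not overlap, but the peak passed the count filter only through CD45.1 libraries. The adjusted p was 0.0572 with DESeq2 and 0.0246 with edgeR, and the ratio of scaled tags was 5.08 (exact counting interval 2.08 to 14.9). GENCODE vM1 places this peak within the spans of Nr1h3 and Gm13783 and in no exon, while the deposited annotation calls it intergenic. The Nr1h2 promoter peak held 136.5, 121 and 116 tags in CD45.1 and 64, 139 and 132.5 in CD45.2 (log2 0.18, adjusted p = 0.654).

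Lpcat3 encodes the acyltransferase that puts polyunsaturated chains into membrane phospholipids. Its promoter peak held 198, 162.5 and 152.5 tags in CD45.1 and 113.5, 232.5 and 210 in CD45.2 (log2 -0.10, adjusted p = 0.806). For Srebf1 the promoter log2 difference was 0.04 (adjusted p = 0.967). For Srebf2 it was 0.22 (adjusted p = 0.605). All 8 untreated promoter peaks thus lay between -0.35 and 0.46 on the log2 scale, and none passed the test.

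**Figure D2:**
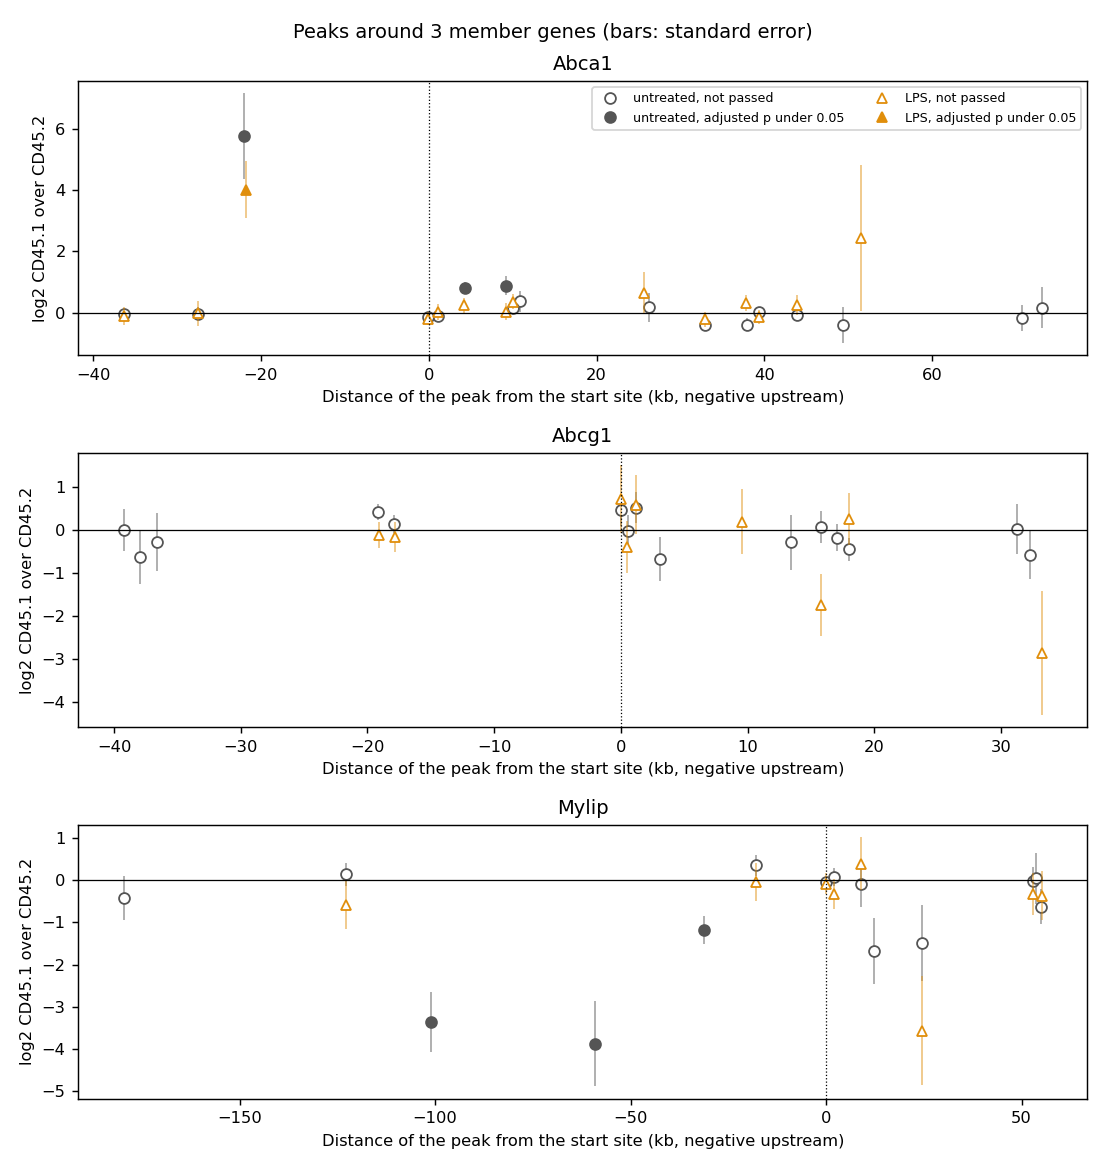
Log2 difference of CD45.1 over CD45.2 (y axis) for each tested peak of Abca1, Abcg1 and Mylip against its distance from the start site in kb (x axis), in untreated (circles) and LPS (triangles) tables. Bars are standard errors and filled symbols have an adjusted p under 0.05. The filled Abca1 symbols lie above 0 and the filled Mylip symbols below it, while the promoter peaks at 0 kb are open symbols.

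The next question was whether the populations differ in the same places 12 h after LPS. Of the 54 LPS member peaks 48 could be tested, since the other 6 had no library above 10 tags. Here 2 peaks passed, both higher in CD45.1 (4.08% of the 49180 peaks tested), and 0 were higher in CD45.2 (2.38%). By the stricter rule 1 member was higher in CD45.1 (1.78% of all peaks) and 0 in CD45.2 (1.19%). The median log2 difference was -0.06 over the tested members and -0.01 over all peaks. With edgeR 2 member peaks passed in each direction, against 3617 of all 49180 peaks higher in CD45.1 and 2297 higher in CD45.2. The additional member peaks were Abcg1 at +15.8 kb and Mylip at +24.5 kb, both higher in CD45.2.

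The Abca1 peak after LPS lay at -21.8 kb (chr4:53194463-53194616), next to the untreated graft peak and separated from it by 93 bases. It held 13.5, 10.5 and 32 tags in the CD45.1 libraries of mice 1, 2 and 3 and 0, 1 and 3 in the CD45.2 libraries. The ratio of scaled tags was 15.6, with an exact counting interval from 5.75 to 59.0 (adjusted p = 0.000889), and every CD45.1 library was above every CD45.2 library. All 3 CD45.1 libraries and none of the CD45.2 libraries had a called peak there. The peak passed the count filter only through CD45.1 libraries, so the lack of overlap and the peak calls are not separate support. It is the stretch printed above with a pair of AP-1 matches and a CEBP match.

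The Nr1h3 peak at -1.81 kb (chr2:91036930-91037235) held 66, 22.5 and 58.5 tags in CD45.1 and 3, 16.5 and 31 in CD45.2. It was 3.37-fold higher in CD45.1 (log2 1.75, SE 0.41, adjusted p = 0.00117), and after scaling the groups did not overlap. It passed in every setting run, with adjusted p from 6.73e-05 to 0.0417. The other tested Nr1h3 peak, at +308 bp, was at -0.10 on the log2 scale (adjusted p = 0.972).

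Promoters again did not pass. Their 7 LPS peaks lay between -0.54 at Srebf1 and 0.72 at Abcg1 on the log2 scale, with adjusted p of 0.695 or more. The Abca1 promoter held 124, 77 and 97 tags in CD45.1 and 72.5, 135.5 and 159 in CD45.2 (log2 -0.20, SE 0.21). The Mylip promoter held 98.5, 54.5 and 74.5 tags in CD45.1 and 40, 103.5 and 119 in CD45.2 (log2 -0.08, SE 0.24). No LPS-table peak overlapped the 3 Mylip peaks that had been higher in host cells, and the nearest lay 4434 to 21631 bases away. The Mylip peak at +24.5 kb held 1, 0.5 and 1 tags in CD45.1 and 3, 7 and 17.5 in CD45.2 and did not pass (adjusted p = 0.0766).

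With DESeq2 none of the peaks with an LXR-type repeat passed between the populations in either table, and the smallest of their adjusted p was 0.148, that of Abcg1 at +15.8 kb after LPS, which passed with edgeR. Their log2 differences lay between -0.45 and 0.52 in untreated mice and between -1.75 and 0.59 after LPS. Of the other motifs, AP-1 letters were in 5 of 63 and 6 of 54 member peaks (8.11% and 13.4% of all peaks) and CEBP letters in 5 and 6 (9.82% and 12.2%). PU.1 letters (GAGGAAGT) were in 3 and 1 (9.45% and 8.72%), RUNX letters (TGTGGTT) in 2 and 1 (5.65% and 5.82%), and IRF letters (GAAANNGAAA) in 3 and 2 (3.85% and 3.47%). The SREBP letters (TCACNCCAC) occurred in the Srebf1 peak upstream of the start site in both tables (0.864% and 0.955% of all peaks), and kappaB letters (GGANTTTCC) in no member peak (1.01% and 1.25%).

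**Figure D3:**
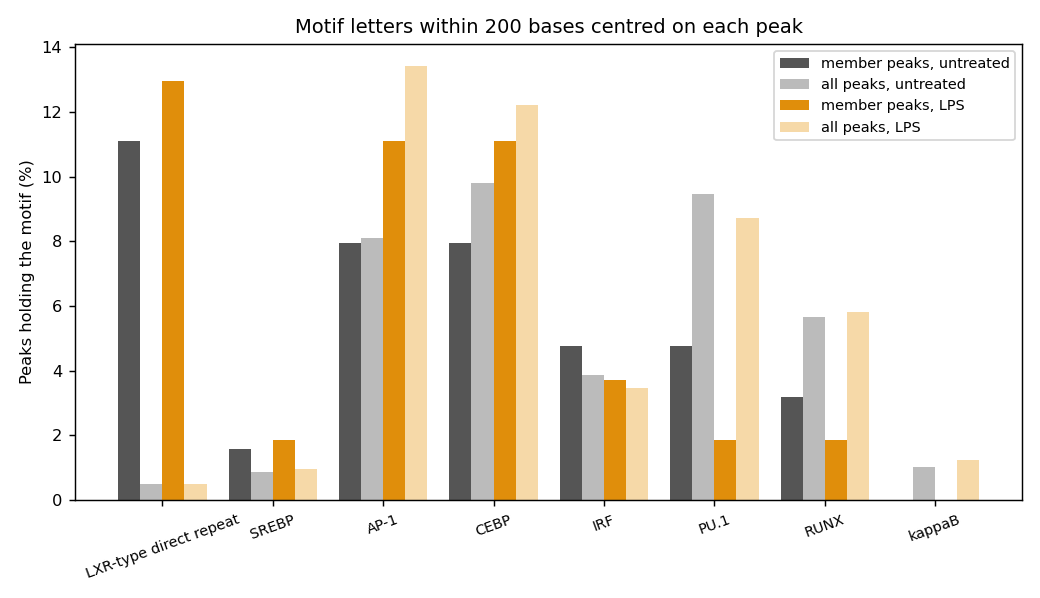
Percent of peaks that held each motif's letters in the central 200 bases (y axis) for member peaks and all peaks of the untreated and LPS tables (bars, by motif on the x axis). The LXR-type repeat stands at 11.1% and 12.96% of member peaks against 0.481% and 0.486% of all peaks.

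Summed over all its peaks, no member gene differed between the populations in untreated mice, where 7.35% of 16174 gene sums were higher in CD45.1 and 7.46% in CD45.2. Mylip (log2 -0.21, 95% interval -0.41 to -0.01, adjusted p = 0.195) and Lpcat3 (-0.27, -0.54 to -0.01, adjusted p = 0.201) passed only without adjustment. The interval for Abca1 ran from -0.21 to 0.16 and that for Abcg1 from -0.19 to 0.27. These limits hold for the main fit only. Over other settings the Abcg1 value reached 0.38, and with total-tag scaling the SE for Abca1 was 0.35. After LPS 1 member sum was higher in CD45.1 (4.08% of 15722 sums) and 0 in CD45.2 (2.98%). Nr1h3 was at 67.1, 47.7 and 68.2 normalised tags in CD45.1 and 26.4, 35.0 and 29.8 in CD45.2, a log2 difference of 1.00 (SE 0.30, adjusted p = 0.0153). That call was lost with the mouse as a block (adjusted p = 0.181) and without any 1 of 4 libraries, namely both of mouse 3, the CD45.1 one of mouse 1 and the CD45.2 one of mouse 2 (adjusted p up to 0.156).

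**Figure D4:**
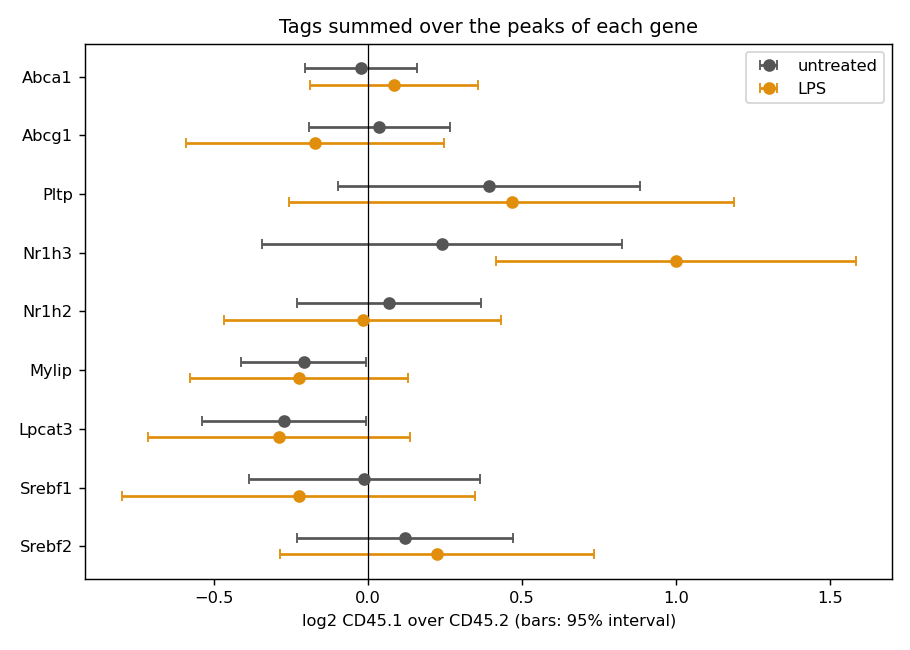
Log2 difference of CD45.1 over CD45.2 in tags summed over all peaks of each gene (x axis) for the 9 member genes (y axis), untreated and LPS, with 95% intervals as bars. The interval of Nr1h3 after LPS lies wholly above 0 (adjusted p = 0.0153), and those of untreated Mylip and Lpcat3 end just below it.

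LPS and untreated libraries were counted over separately merged peaks and came from different mice, so they were compared only over peaks matched one to one by at least 50% reciprocal overlap. There were 37 matched member pairs among 39390, and any difference in processing between the 2 treatments cannot be told apart from LPS. In CD45.1 cells 2 member peaks rose (6.78% of 39235 peaks) and 2 fell (4.93%), counting peaks that both passed the adjusted threshold of 0.05 and changed over 2-fold. In CD45.2 cells 1 rose (7.69%) and 2 fell (3.69%). Matched peaks differ in width between the tables. With counts offset by peak width the members split into 1 higher and 9 lower in CD45.1, against 1273 and 3463 of all 39235 peaks. In CD45.2 they split into 1 higher and 5 lower, against 1697 and 2548 of all peaks. The median over all peaks shifted to -0.27 in both, since the scaling was set on counts without the offset. Values under the offset carry that downward shift.

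Intron 1 of Abca1 held the peaks that rose. The peak at +9.19 kb rose in both populations, from 33.6, 35.5 and 33.0 normalised tags to 82.0, 66.1 and 81.1 in CD45.1 (log2 1.18, SE 0.24, adjusted p = 2.62e-05) and from 23.9, 15.3 and 18.7 to 85.8, 75.8 and 66.5 in CD45.2 (log2 2.00, SE 0.26, adjusted p = 4.11e-12). With the width offset, under which the median over all peaks was -0.27, the CD45.1 value was 0.99, just under 2-fold. The peak at +10.01 kb rose in CD45.1 (log2 1.23, SE 0.22, adjusted p = 6.52e-07), and in CD45.2 it stood at 0.97 (SE 0.22, adjusted p = 0.000286), under 2-fold. The promoter changed by 0.46 in CD45.1 and 0.48 in CD45.2 (adjusted p = 0.0443 and 0.0346), also under 2-fold. Its peak was 146 bases wide in untreated mice and 219 after LPS, and the part of width in this change was not tested. At -27.5 kb the direction was the opposite, with 50.1, 65.3 and 85.2 normalised tags in untreated and 37.8, 30.3 and 33.3 in LPS libraries of CD45.2 (log2 -1.03, adjusted p = 0.00504) and -0.96 in CD45.1 (adjusted p = 0.00956). In CD45.2 that call was lost without the LPS library of mouse 2 (log2 -0.96, under 2-fold), without the untreated library of mouse 6 (adjusted p = 0.0976) and with total-tag scaling (0.053).

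Other peaks that fell lay at Abcg1 and Mylip. The Abcg1 peak at +15.8 kb, which holds an LXR-type repeat, went from 16.2, 17.1 and 17.2 to 5.86, 3.89 and 5.60 normalised tags in CD45.1 (log2 -1.68, SE 0.55, adjusted p = 0.018). In CD45.2 it went from 13.1, 20.5 and 14.3 to 12.6, 22.7 and 15.8. The Abcg1 peak at +18.01 kb, which also holds one, fell in CD45.2 from a range of 30.5 to 44.3 to one of 5.04 to 17.7 (log2 -1.57, SE 0.37, adjusted p = 0.000506) and stood at -0.87 in CD45.1 (adjusted p = 0.078). The Mylip peak at -123 kb fell in CD45.1 (log2 -1.31, SE 0.38, adjusted p = 0.00662), where it held 35.5, 37.4 and 28.7 normalised tags before and 21.1, 11.7 and 6.99 after LPS. In CD45.2 it stood at -0.63 (adjusted p = 0.225), and the interaction did not pass (adjusted p = 0.959). With the width offset this Mylip peak passed in CD45.2 (-1.21, adjusted p = 0.00555), where the median over all peaks was -0.27. Without the CD45.1 LPS library of mouse 3 the adjusted p of the Mylip peak in CD45.1 was 0.11, and the Abcg1 peak at +15.8 kb lost its call without any of the 3 CD45.1 LPS libraries (adjusted p up to 0.0744). With total-tag scaling both lost their calls in CD45.1 (0.069 for Mylip and 0.0723 for Abcg1).

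The Nr1h3 peaks at -1.92 and -1.81 kb shared 98 bases, too few for the 50% rule because the LPS peak is 306 bases wide and the untreated peak 105. Most bases of the LPS peak were thus not counted in untreated mice. Matched by any overlap, the LPS peak was above the untreated peak by 3.35 on the log2 scale in CD45.1 (SE 0.42, adjusted p = 3.3e-13) and by 3.90 in CD45.2 (SE 0.70, adjusted p = 8.46e-07). The untreated CD45.2 libraries held few tags there, so the second value starts near the floor. With the width offset, a combination added after seeing the data, the LPS peak was above by 1.80 (SE 0.45, adjusted p = 0.000931) and 2.34 (SE 0.72, adjusted p = 0.00984). The median over all peaks was -0.30 in both populations under that combination. The wider LPS peak thus held more tags than the untreated one in both populations. Whether the bases counted only after LPS were open before it was not tested.

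Summed over matched peaks, a comparison added after seeing the data, Abca1 rose in CD45.1 cells by 0.32 on the log2 scale (SE 0.11, adjusted p = 0.0156), 1 member of 9 against 15.6% of 14778 gene sums. It was at 823, 933 and 773 normalised tags in untreated and 1072, 1058 and 1020 in LPS libraries. In the same cells 3 members fell (12.0% of sums), namely Abcg1 by 0.60 (SE 0.16, adjusted p = 0.00218), Mylip by 0.46 (SE 0.13, adjusted p = 0.0022) and Srebf1 by 0.70 (SE 0.23, adjusted p = 0.0154). In CD45.2 cells 0 rose (10.4% of sums) and 0 fell (4.94%), with 0.24 for Abca1, -0.31 for Abcg1, -0.32 for Mylip and -0.52 for Srebf1 at adjusted p from 0.0598 to 0.188. Abca1 lost its call without the LPS library of mouse 2 or the untreated library of mouse 4 or 6 (CD45.1, adjusted p up to 0.104), Abcg1 without the LPS library of mouse 3 (0.0679), and Srebf1 without the LPS library of mouse 2 or 3 or the untreated library of mouse 4 (up to 0.128). Without the CD45.2 LPS library of mouse 3, Abca1 rose by 0.33 in CD45.2 cells (adjusted p = 0.0294). With libraries scaled to total tags none of these sums passed, and at 80% reciprocal overlap those of Abcg1, Mylip and Srebf1 in CD45.1 did not (adjusted p = 0.21, 0.321 and 0.0574).

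**Figure D5:**
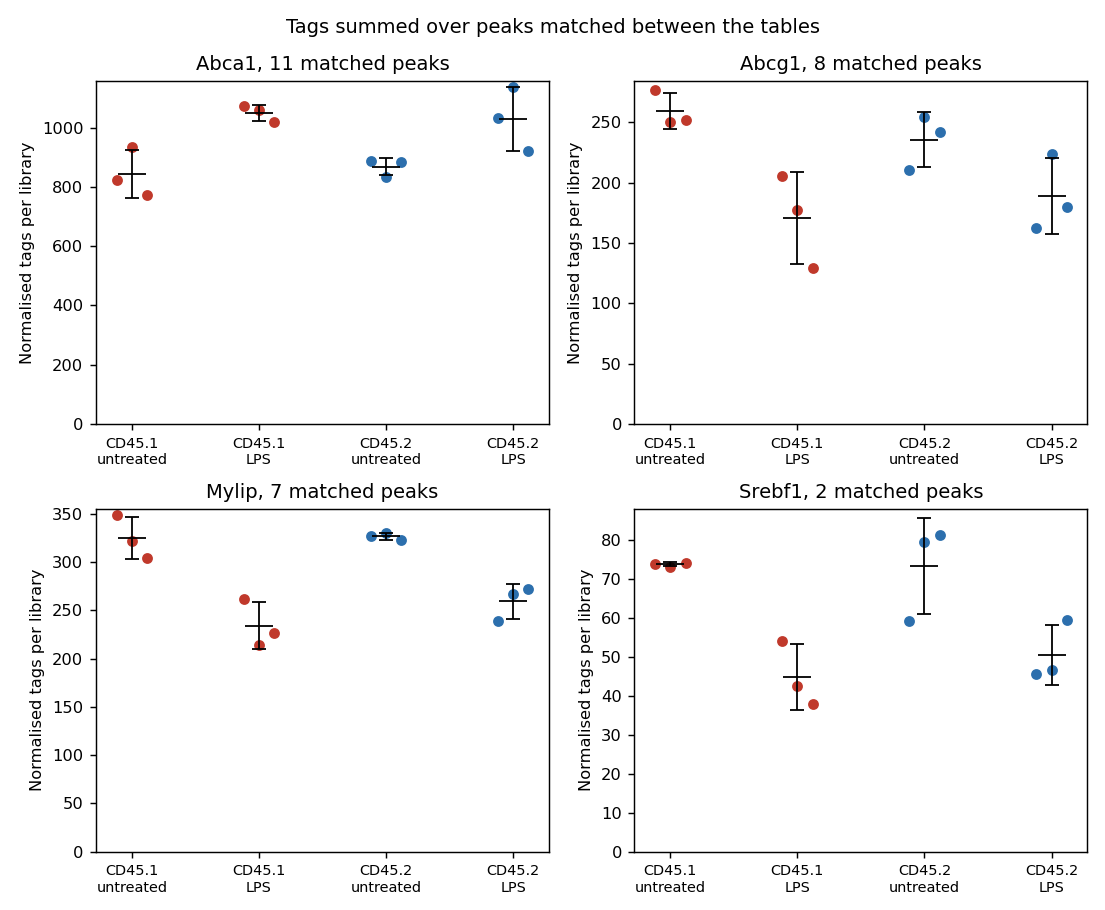
Normalised tags per library summed over matched peaks (y axis) of Abca1, Abcg1, Mylip and Srebf1 in the 4 groups (x axis). Points are libraries and bars are the mean and SD of 3. CD45.1 libraries after LPS lie above the untreated ones for Abca1 and below them for the other 3 genes.

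Whether the response to LPS differed between the populations was tested directly. No member peak had an interaction of population and LPS at an adjusted p under 0.05, with either sign and with DESeq2 or edgeR. Among all 39235 matched peaks 0.0178% had a positive and 0.227% a negative interaction. In simulated counts the interaction test recovered 8% of 2-fold and 53% of 4-fold changes with DESeq2, and 1% and 51% with edgeR. A member peak without a call is thus not shown to respond alike in both populations. Of the 37 member pairs 28 received an adjusted p. Without adjustment 3 pairs had a p under 0.05. The share of all peaks at that level is not given, so this count is not read as a result. The 3 pairs were Abca1 at +37.9 kb (0.73), Abca1 at +9.19 kb (-0.82) and Abcg1 at +15.8 kb (-1.79, no adjusted p). No gene sum passed either (0.0406% and 0.149% of all sums), and the 95% interval of the interaction was -0.22 to 0.37 for Abca1, -0.74 to 0.16 for Abcg1, -0.49 to 0.20 for Mylip and -0.82 to 0.46 for Srebf1.

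The rest of the pathway was described by 4 lists of other genes, using sums over all peaks of a gene. The first list held 14 genes, namely LXR partners, coregulators and the other nuclear receptor genes Pparg and Ppard. In untreated mice 2 of them, Pparg and Ppard, were higher in CD45.1 and 1 was higher in CD45.2. After LPS the counts were 0 and 1. Over all gene sums the shares called were 7.35% and 7.46% in untreated mice and 4.08% and 2.98% after LPS, which is the background for the counts of all 4 lists. Rxrg, which encodes an RXR that can pair with LXRs, was at 22.5, 44.5 and 30.6 normalised tags in CD45.1 and 303, 315 and 298 in CD45.2 (log2 -3.23, SE 0.21, adjusted p = 6.47e-52). After LPS it was at -2.75 (SE 0.26, adjusted p = 2.33e-23). Pparg, which encodes a fatty acid receptor upstream of LXR alpha in macrophages, was higher in CD45.1 at 0.85 (adjusted p = 6.26e-06), as was Ppard at 0.37 (adjusted p = 0.0436).

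Of the genes for cholesterol efflux, storage and trafficking, 19 of 21 were tested in untreated mice, where 6 were higher in CD45.1 (7.35% of all sums) and 1 in CD45.2 (7.46%). Apoe, the apolipoprotein that accepts effluxed cholesterol in the brain and a marker the study chose on these cells, was at 206, 182 and 187 in CD45.1 and 55.1, 60.5 and 64.8 in CD45.2 (log2 1.66, adjusted p = 1.3e-16). Apoc1, its neighbour in the same gene cluster, was at 1.77 (adjusted p = 8e-08) and Lpl, the lipoprotein lipase, at 0.85 (adjusted p = 0.000721). Osbpl1a, an oxysterol-binding protein, was the gene higher in CD45.2 (-0.73, adjusted p = 1.8e-06). After LPS 2 of 20 were higher in CD45.1 (4.08% of all sums), Apoe (1.26, adjusted p = 0.0023) and Nceh1, a cholesterol ester hydrolase (0.56, adjusted p = 0.0131). The list's median was 0.17 against 0.00 over all gene sums in untreated mice and 0.02 against -0.01 after LPS.

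In the SREBP and sterol synthesis list, 3 of 27 genes were higher in CD45.2 in untreated mice (7.46% of all sums) and 2 of 27 after LPS (2.98%), and 0 were higher in CD45.1 (7.35% and 4.08%). In untreated mice the genes higher in CD45.2 included Insig2, which holds SREBP in the endoplasmic reticulum, at 126, 151 and 122 normalised tags in CD45.1 and 217, 224 and 234 in CD45.2 untreated libraries (log2 -0.76, adjusted p = 2.34e-05). Every CD45.2 library lay above every CD45.1 library. The list's medians were -0.01 and 0.00.

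Of 11 genes of fatty acid synthesis, 2 were higher in CD45.1 and 1 in CD45.2 in untreated mice (7.35% and 7.46% of all sums), and 1 and 2 after LPS (4.08% and 2.98%). Elovl6, an elongase of long-chain fatty acids, was at 178, 163 and 226 in CD45.1 and 42.1, 43.0 and 69.8 in CD45.2 (log2 1.84, adjusted p = 5.95e-15), and at 1.03 after LPS (adjusted p = 0.0033). Elovl5 was at 0.43 (adjusted p = 0.000319). Mlxipl, which encodes the carbohydrate-sensing factor ChREBP, was lower in CD45.1 at -0.87 (adjusted p = 1.82e-05) and at -1.35 after LPS (adjusted p = 0.000956), where Fasn, the fatty acid synthase, was at -0.68 (adjusted p = 0.0429). Medians of this list were 0.12 and -0.07.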

How the data were processed

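ATAC-seq tags were measured in 12 libraries (4 groups of 3 mice). The submitters' processing notes name bcl2fastq 2.17.1.14, Bowtie2, Picard 1.108, HOMER and mm9. The authors called peaks per library, and each deposited list holds a HOMER score, used here only for whether a library had a peak. The authors merged lists per treatment and counted unnormalised tags in steps of 0.5, treated as estimated counts and rounded. How duplicates were handled is not given in the sources used here. Each table was fitted with DESeq2 1.42.0 (R 4.3.3, Wald test, median-of-ratios size factors, on features with a count over 10 in at least 1 library, with Benjamini-Hochberg adjustment over those that DESeq2's independent filtering kept, the others having no adjusted p), as were gene sums and matched peaks. P-values rest on a count model whose dispersion is drawn in part from all features, and the main fit treats the 2 libraries of a mouse as separate. For peaks with few tags in a group they say little of the spread between its mice. Counting intervals cover counting error only. Peaks with no library over 10 tags in 1 population passed the count filter only through the other population. Named were promoter peaks, up to 4 passing peaks per gene and table, and up to 4 genes per list, some of which are not reported here. The members and lists were chosen with earlier results of these data known.

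The series' design text says both populations were sorted from the same animal, so mouse numbers pair libraries. Deviations of the 2 libraries of a mouse correlated at 0.144, 0.0553 and 0.0645 (untreated) and -0.216, 0.0639 and 0.0622 (LPS). Those of different mice ran from -0.122 to 0.0294 (untreated) and from -0.231 to 0.187 (LPS). Scripts were tested on simulated data. Alternatives were edgeR 4.0.16, other filters and scalings, the mouse as a block, libraries left out, other overlaps and a width offset.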

Additional observations from a re-analysis of the deposited data

How the results depend on the processing

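Untreated member peaks passing numbered 6, and 10 with edgeR, 3 at a mean count of at least 20 (fewer peaks tested), 3 scaled to total tags, 3 with the replicate block and GC correction, and 3 to 7 with a library left out. Of all 59170 peaks, 5052 were higher in CD45.1 and 3737 in CD45.2 in the main fit. These numbers were 3355 and 2169 scaled to total tags, and 3053 and 2409 with the block and GC correction. LPS member peaks numbered 2, and 4 with edgeR, 1 at the mean count of 20, and 2 to 2 with a library left out. The Nr1h3 gene sum after LPS was the 1 passing, 0 with the replicate block, and 0 to 1 with a library left out. The block alone changed no other count of member calls beyond 1.5 times. Untreated gene sums and all interactions stayed at 0 throughout. LPS against untreated gave 4 peaks in CD45.1, with 2 scaled to total tags, 2 at 80% overlap, 10 with the width offset, 11 with any overlap and that offset, and 2 to 6 with a library left out. In CD45.2 it gave 3, with 6 and 7 under the same offsets and 2 to 4 with a library left out. Under these offsets the median over all peaks was -0.27 and -0.30. Of all 39235 matched peaks in CD45.1, 2662 rose and 1936 fell in the main fit, and 1826 and 794 scaled to total tags. With any overlap and the offset, 1560 rose and 4465 fell of 43282 in CD45.1, and 2058 and 3323 in CD45.2. The gene sums over matched peaks gave 4 in CD45.1 (0 scaled to total tags, 1 at 80% overlap, 2 to 4 with a library left out) and 0 in CD45.2 (1 each with edgeR, the mean count of 20, 80% overlap and any overlap, and 0 to 1 with a library left out). Of all 14778 sums in CD45.1, 2305 rose and 1769 fell in the main fit, and 325 and 88 scaled to total tags. Totals over all features for settings not given here or above are not reported. The cause of these changes was not tested. No result that had passed changed sign, but some that had not passed did, such as the Abcg1 sum for LPS in CD45.2 (-0.31, and 0.06 at 80% overlap), the Abcg1 peak at +15.8 kb there (0.11, and -0.33 with any overlap and the offset) and the untreated Nr1h3 sum (0.24, and -0.05 from its strongest peak). Scaling to total tags moved the median of all LPS peaks to 0.14 between populations and to -0.15 for LPS in CD45.2. LPS libraries were shallower, so a low peak there carries more counting error.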
